A study of Mus musculus with 4 samples.

Results

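Replacement histone variants are the histones that a cell can place into chromatin outside of DNA replication. The genes followed here were H2afx, H2afz, H2afv, H2afy, H2afy2, H3f3a, H3f3b, H1f0 and H1fx, a set of 9 genes named by their known class, by a rule that used no measured value but was set with earlier results of these data known. Of these, 8 genes had a named row in the expression tables and all 8 were tested, among 9851 tested genes of 20442 with a named row. H2afy2 could not be given a row of its own. The data were RNA-seq levels from 46C mouse ES cells, a line grown with LIF on gelatin, in which both conditions carried a TAP tag knocked in at Atad2. Atad2 is a bromodomain AAA ATPase of chromatin. The cells were transfected with a scrambled siRNA (si-ctrl, 2 libraries) or with anti-Atad2 siRNA (si-Atad2, 2 libraries), and the question was what Atad2 knockdown did to the transcripts of these variants. The paper used a pair of active anti-Atad2 siRNAs and sequenced each RNA again, so which siRNA a library received is not given in the sources used here. Whether replicates 1 and 2 were separate cultures is also not given, and p-values then measure only the spread between these libraries, which may be technical.

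Most histone is made in S phase from the clustered, replication-dependent genes, whose mRNAs end in a stem-loop in place of a poly(A) tail. Replacement variants come from separate genes that are transcribed through the cell cycle, and most of their mRNAs are polyadenylated. H3.3 is laid down at active genes by the HIRA complex and at telomeres and repeats by DAXX and ATRX, H2A.Z is exchanged at promoters by the SRCAP and EP400 complexes, H2A.X is phosphorylated at DNA breaks, macroH2A carries a large macro domain and marks silent chromatin, and H1.0 and H1x are linker histones, of which H1.0 is known to accumulate in cells that stop dividing.

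Levels are given in FPKM, a fragment number divided by transcript length and by library size, from the Cuffdiff runs of the authors, so levels of different genes are compared per length. Each run held 1 si-Atad2 and 1 si-ctrl library, which form a pair. A change is the log2 ratio of FPKM + 1 of si-Atad2 over si-ctrl within a pair, its mean over the pairs was tested with limma over all tested genes, and genes with a Benjamini-Hochberg adjusted p under 0.05 are called changed. The targeted gene, Atad2, stood at 34.1 and 36.0 FPKM in the si-ctrl libraries and at 10.1 and 13.0 FPKM in the si-Atad2 libraries, a fold of 0.346 (log2 ratio -1.53, SE 0.077, adjusted p = 8.67e-06 by limma). The summed level of 5 ES cell markers was 1599.8 to 1751 FPKM per library, of which Pou5f1 gave 701 to 807 FPKM. It was 7.15 to 8.46 FPKM for 4 fibroblast markers and 5.14 to 5.75 FPKM for 6 markers of differentiated lineages. Of these, 5 ES cell, 2 fibroblast and 3 lineage markers reached the level needed for testing, and none passed. The ES cell markers ranged from a log2 ratio of -0.25 for Nanog (adjusted p = 0.121, limma) to 0.04 for Sox2. The tables hold no read counts, so depth is unknown and no counting interval beyond the authors' own is given. In such bulk libraries fewer cells that express a gene and less RNA per cell cannot be told apart.

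The H3.3 protein is encoded by H3f3a and H3f3b, and the H2A.Z proteins by H2afz and H2afv. The coding sequences are shown because these gene pairs make the same or nearly the same protein from different mRNAs, which is what allows RNA-seq to count them apart. The first 120 bases of each coding sequence follow, from the GENCODE vM21 transcripts of GRCm38, with the bases that differ within a pair in capitals (24 in H3.3 and 28 in H2A.Z).
H3f3a: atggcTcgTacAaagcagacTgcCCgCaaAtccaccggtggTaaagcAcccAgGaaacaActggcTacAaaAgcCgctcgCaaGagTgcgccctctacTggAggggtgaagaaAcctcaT
H3f3b: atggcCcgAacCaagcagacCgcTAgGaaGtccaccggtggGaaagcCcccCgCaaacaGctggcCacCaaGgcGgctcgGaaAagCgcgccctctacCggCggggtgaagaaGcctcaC
H2afz: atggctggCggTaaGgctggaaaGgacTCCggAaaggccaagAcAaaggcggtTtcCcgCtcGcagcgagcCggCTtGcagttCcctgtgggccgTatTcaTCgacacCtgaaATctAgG
H2afv: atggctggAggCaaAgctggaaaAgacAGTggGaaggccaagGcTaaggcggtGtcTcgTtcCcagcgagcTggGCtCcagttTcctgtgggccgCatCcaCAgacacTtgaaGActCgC

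Over the whole coding sequence, H3f3a and H3f3b differed at 95 of 411 bases (76.9% identity) and in 83 of 136 codons, and none of these 83 codons changed the amino acid. H2afz and H2afv differed at 81 of 387 bases (79.1% identity) and in 73 of 128 codons, of which 3 changed the amino acid. The longest stretch without a difference was 23 bases in the H3.3 pair and 14 bases in the H2A.Z pair, so no window of 50 bases, the number of sequencing cycles, was shared within either pair.

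Reads of some members could still come from other genes. Of all 50-base windows of the H2afz coding sequence, 100% also occurred in 1 or more of 6 other annotated genes, 4 of them pseudogenes. For H3f3a the share was 92.8%, with 38 other genes, 37 of them pseudogenes. It was 46.4% for H3f3b, 33.7% for H2afx (the clustered H2A genes and H2afj among 43 others), 31.7% for H1fx (its antisense gene Gm5577), 16.4% for H2afy (its antisense gene Gm47071) and 13.3% for H2afy2. H2afv and H1f0 shared no coding window. Over all windows of the annotated transcripts the shares were 69.6% for H2afz, 30.3% for H3f3a, 8.40% for H3f3b and 9.66% for H2afx. They were 14.0% for H1fx, 8.76% for H2afy, 15.4% for H2afy2, 5.68% for H1f0 and 0 for H2afv. The H3f3a transcript, of 2841 bases, is longer than its table rows of 1076 and 807 bases. How the authors' counting placed such reads is not given in the sources used here, so these levels are uncertain, and the part of shared reads in any result was not tested.

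**Figure D1:**
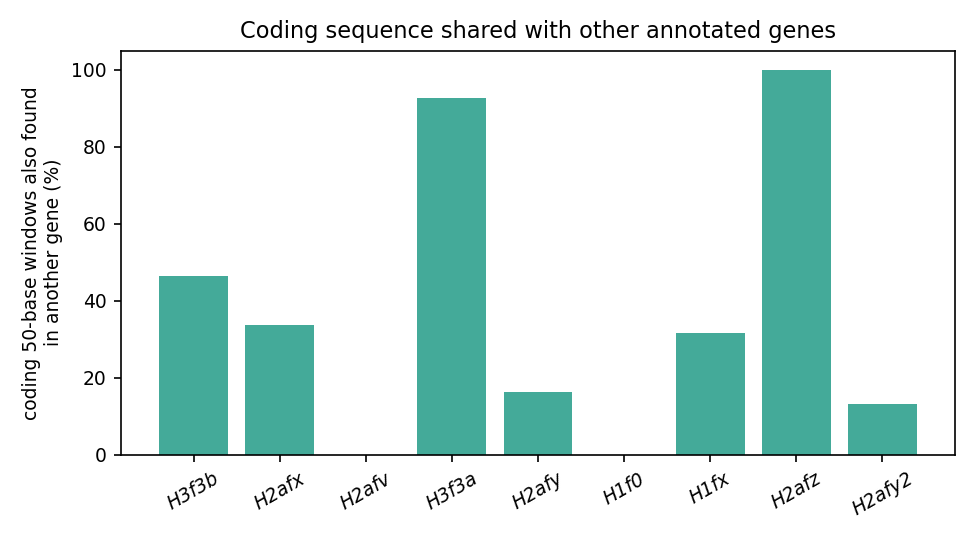
Percent of 50-base windows of each member's coding sequence (vertical axis) that also occur in another gene of the annotation, 1 bar per gene (horizontal axis). H2afz stands at 100% and H3f3a at 92.8%, while H2afv and H1f0 are at 0.

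H3f3b had the highest level of the set, with 337 and 362 FPKM in the si-ctrl libraries, and 0.589% of tested genes had a higher si-ctrl level. H2afx followed with 199.7 and 171 FPKM. H2afv (71.9 and 64.4 FPKM) and H3f3a (69.4 and 66.3 FPKM) came next, and their si-ctrl ranges overlapped, so their order is not resolved. H2afy had 41.8 and 40.0 FPKM, above H1f0 (32.5 and 34.4 FPKM) and H1fx (33.4 and 31.1 FPKM), and the ranges of H1f0 and H1fx overlapped. H2afz was the lowest member at 26.4 and 25.9 FPKM. Of its coding windows 100% were shared with other genes, so its level and the next ratio are uncertain. The ratio of the highest to the lowest member was 12.8 in si-ctrl 1 and 14.0 in si-ctrl 2. H3f3b and H2afx alone gave 65.5% to 67.8% of the summed level of the 8 genes in the 4 libraries, and this sum was 813 and 795 FPKM in si-ctrl 1 and 2 and 905 and 783 FPKM in si-Atad2 1 and 2.

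**Figure D2:**
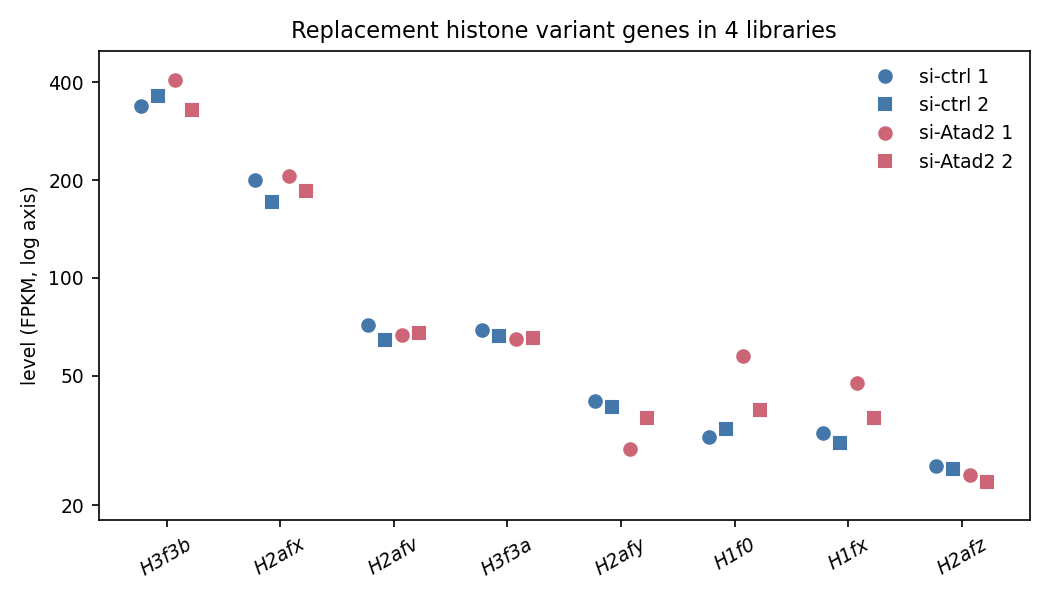
Level of each member in FPKM on a log axis (vertical) by gene (horizontal), with 1 point per library, blue for si-ctrl, red for si-Atad2, circles for replicate 1 and squares for replicate 2. H3f3b and H2afx lie above the other members in every library, and the red points of H1f0 and H1fx lie above their blue points.

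On Atad2 knockdown, 1 of the 8 tested members passed the test, the linker histone gene H1fx, which rose; over all tested genes 193 (1.96%) passed, 151 higher (1.53%) and 42 lower (0.426%). The other linker histone gene, H1f0, had the largest mean ratio of the set but missed the threshold. The 6 core histone genes did not pass. The si-Atad2 and si-ctrl values did not overlap for 5 of the 8 members, H1f0 and H1fx being higher and H2afz, H2afy and H3f3a lower, beside 49.3% of all tested genes without overlap (22.6% higher and 26.7% lower). The median log2 ratio was 0.02 over the 8 members and -0.01 over all tested genes.

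**Figure D3:**
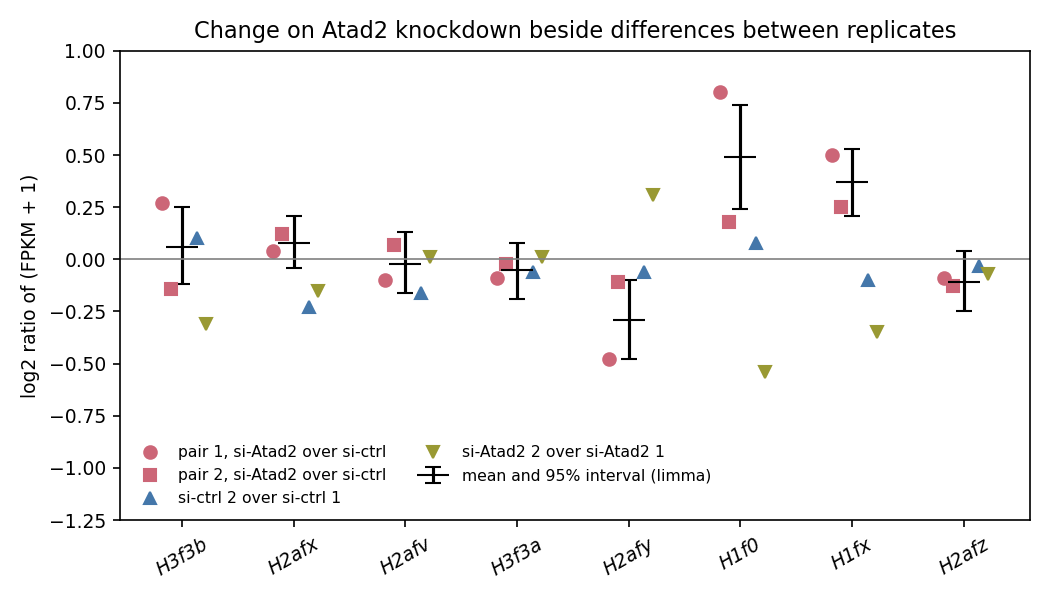
Log2 ratio of FPKM + 1 (vertical axis) for each member (horizontal axis), with the si-Atad2 over si-ctrl ratio of each pair in red, the mean with its 95% limma interval in black, and the ratio between replicates of the same condition in blue and olive. The difference between the si-Atad2 libraries is about as wide as the mean ratio for H1f0 (-0.54 against 0.49), H1fx (-0.35 against 0.37) and H2afy (0.31 against -0.29).

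H1fx encodes H1x, a linker histone that binds DNA between nucleosomes and differs in sequence from the clustered H1 proteins. It is a gene with 1 exon on GRCm38 chr6:87980421-87981637, minus strand. Its level was 33.4 FPKM in si-ctrl 1, 31.1 FPKM in si-ctrl 2, 47.6 FPKM in si-Atad2 1 and 37.2 FPKM in si-Atad2 2. Both si-Atad2 libraries were above both si-ctrl libraries, but the log2 ratio of si-Atad2 2 over si-Atad2 1 was -0.35, about as wide as the mean change below. Pair 1 gave a log2 ratio of 0.50 and pair 2 one of 0.25, with a mean of 0.37 (SE 0.073, 95% interval 0.21 to 0.53, fold 1.30, adjusted p = 0.0287 by limma). H1fx passed the test in 6 of 15 alternative analyses, and not without the pairing of libraries (adjusted p = 0.135, limma). With the pairing dropped and 1 library left out, the lone library is assumed to vary like the other condition. H1fx passed without si-Atad2 2 (ratio 0.55), a fit that is among the 6. It was lost without si-ctrl 1 (0.42), without si-ctrl 2 (0.32) and without si-Atad2 1 (0.20). Nor did it hold with the trend on GC content removed from each pair, when the mean ratio was 0.21 (adjusted p = 0.260, limma). H1fx has a GC content of 71.3%, against a median of 51.0%, and only 2 tested genes including H1fx itself reached that value. The 4 genes within 2 percentage points of it, H1fx among them, had a median log2 ratio of 0.14 (0.06 in pair 1 and 0.22 in pair 2). Across the 9851 tested genes, which are not independent replicates, the Spearman correlation of GC content was -0.55 with the ratio of si-ctrl 2 over si-ctrl 1, -0.29 with the ratio of pair 1 and 0.08 with that of pair 2. The part of GC content in the ratio of H1fx was not tested further than by the fit with the GC trend removed. Gm5577 overlaps H1fx on the other strand and use of the strand is not given in the sources used here, so their reads cannot be told apart.

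H1f0 encodes H1.0, the linker histone that replaces other H1 proteins as cells differentiate or leave the cycle. It too has 1 exon, on chr15:79028450-79030504, plus strand. Its level was 32.5 FPKM in si-ctrl 1, 34.4 FPKM in si-ctrl 2, 57.5 FPKM in si-Atad2 1 and 39.2 FPKM in si-Atad2 2. Both si-Atad2 values were above both si-ctrl values, yet si-Atad2 1 stood far above si-Atad2 2. Pair 1 gave a log2 ratio of 0.80 and pair 2 one of 0.18, and their mean was 0.49 (SE 0.11, 95% interval 0.24 to 0.74, fold 1.41) and an adjusted p of 0.0560 by limma. The authors' 95% intervals of its only row, which cover the estimate within a library, were 31.4 to 33.6, 33.2 to 35.6, 56.0 to 59.0 and 38.0 to 40.5 FPKM in the same order as the levels above, so the difference between the si-Atad2 libraries exceeded those intervals. It passed the threshold in 6 of 15 alternative analyses, for example with a pseudocount of 5 FPKM (adjusted p = 0.0246, limma), and not without the pairing of libraries (adjusted p = 0.152, limma) or with the GC trend removed (adjusted p = 0.0911, limma). With the pairing dropped and 1 library left out, the ratio was 0.22 without si-Atad2 1, 0.76 without si-Atad2 2, 0.45 without si-ctrl 1 and 0.53 without si-ctrl 2. The fits without si-Atad2 1 or si-Atad2 2 passed and are among the 6, and those without a si-ctrl library did not pass. In such fits the lone library is assumed to vary like the other condition, so their p-values are not given. The antisense neighbour of H1f0, Gm49544, shares part of the H1f0 transcript outside the coding sequence.

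The promoters of H1f0 and H1fx are printed because these were the members with the highest ratios. They come from the RefSeq table of GRCm38.p6 and run from 250 bases before to 50 bases after the RefSeq start. GGGCGG, the box bound by SP1 family factors, is in capitals on either strand. The H1f0 window ends before the GENCODE gene start of H1f0 given above, so bases near that start are not shown.
H1f0, chr15:79027962-79028261, plus strand: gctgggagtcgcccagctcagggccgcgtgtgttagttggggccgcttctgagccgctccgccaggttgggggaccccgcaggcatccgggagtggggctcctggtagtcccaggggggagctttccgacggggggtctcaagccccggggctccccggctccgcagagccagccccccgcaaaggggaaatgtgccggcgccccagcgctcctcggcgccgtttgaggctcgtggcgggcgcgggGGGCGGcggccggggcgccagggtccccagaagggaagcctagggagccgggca
H1fx, chr6:87981433-87981732, minus strand: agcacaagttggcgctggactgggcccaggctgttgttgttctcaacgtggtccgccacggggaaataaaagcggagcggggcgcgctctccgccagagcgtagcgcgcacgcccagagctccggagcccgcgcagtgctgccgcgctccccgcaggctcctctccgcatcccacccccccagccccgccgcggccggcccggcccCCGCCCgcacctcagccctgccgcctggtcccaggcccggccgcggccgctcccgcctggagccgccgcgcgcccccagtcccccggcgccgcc

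Of the 9 members, 8 matched an entry of that table and H2afx did not. GGGCGG occurred in 6 of the 8 promoters, with 6 matches in that of H3f3a, and in 35.7% of all 32851 promoters of the same length, on either strand. CCAAT, the box of the NF-Y factor, occurred in 5 of 8 (H2afz, H2afv, H2afy2, H3f3a and H3f3b) and in 37.4% of all promoters. TATAAA occurred in 1 of 8 (H3f3b) and in 13.6% of all. AAACACA, an element known from promoters of clustered H1 genes, occurred in 1 of 8 (H3f3a) and in 7.18% of all. GGGCGG was thus the only one of these 4 motifs in the windows of H1f0, H1fx and H2afy. Of these genes, H2afy had the lowest mean log2 ratio of the set (-0.29). The GENCODE gene starts of H1f0, H2afy, H3f3a and H3f3b lie outside their windows, so motifs near those starts were not searched. The GC content of the windows was 75.0% for H1f0, 77.7% for H1fx and 55.0% for H3f3b, the lowest of the 8.

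**Figure D4:**
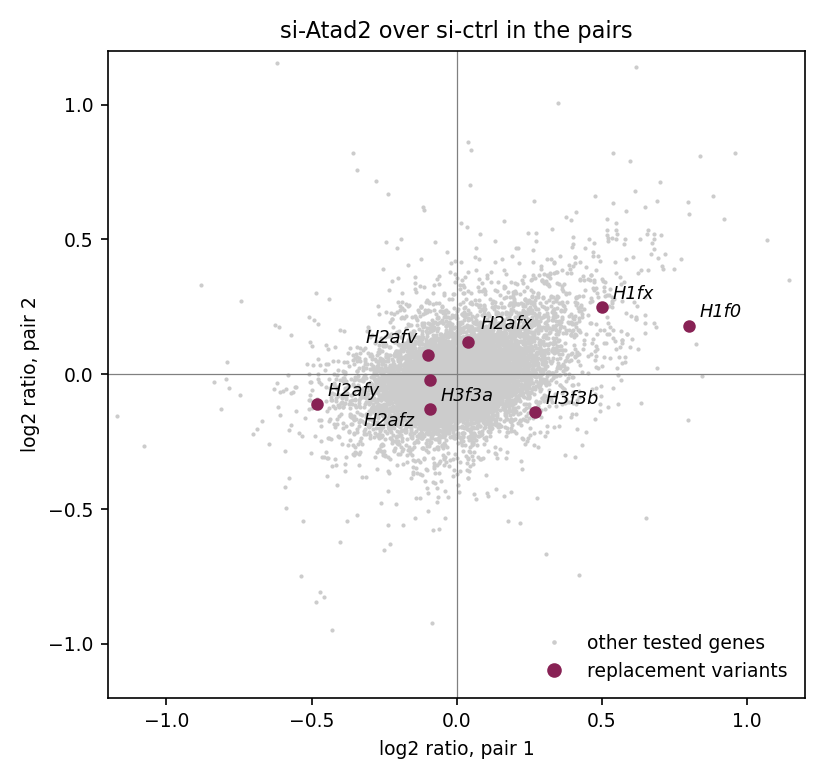
Log2 ratio of FPKM + 1, si-Atad2 over si-ctrl, in pair 1 (horizontal axis) against pair 2 (vertical axis), with 9843 of the tested genes inside the axes, members in purple and other genes in grey. H1f0 (0.80 and 0.18) and H1fx (0.50 and 0.25) lie right of the other members, and H3f3b (0.27 and -0.14) has opposite signs in the pairs.

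Among 2649 tested genes with a si-ctrl level within 2-fold of H1f0, the nearest to it in the plane of the pair ratios were Cdkn1b (distance 0.22 on the log2 scale, ratios 0.59 and 0.15), Spry4 (0.29, ratios 0.52 and 0.15) and Gabarap (0.30, ratios 0.56 and 0.36). Cdkn1b encodes the cyclin-dependent kinase inhibitor p27, Spry4 an inhibitor of receptor tyrosine kinase signalling and Gabarap an autophagy adaptor. Of these, Gabarap passed the test (42.0 and 41.9 FPKM in the si-ctrl libraries, 62.6 and 54.0 FPKM in the si-Atad2 libraries, adjusted p = 0.00635 by limma), and Cdkn1b (adjusted p = 0.0814, limma) and Spry4 (adjusted p = 0.0778, limma) did not. These genes were chosen by their ratios over 2 pairs from the same 4 libraries, so the likeness is a description.

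Neither H3.3 gene passed the test. H3f3a, on chr1:180800832-180813943, had 69.4 FPKM in si-ctrl 1, 66.3 FPKM in si-ctrl 2, 65.1 FPKM in si-Atad2 1 and 65.5 FPKM in si-Atad2 2. The conditions did not overlap, but the gap between the nearest libraries was under 1 FPKM. Its mean log2 ratio was -0.05 (95% interval -0.19 to 0.08, adjusted p = 0.712 by limma). H3f3b, on chr11:116021912-116027962, had 337 and 362 FPKM in si-ctrl 1 and 2 and 407 and 328 FPKM in si-Atad2 1 and 2. Its si-Atad2 libraries were the highest and the lowest of the 4, with ratios of 0.27 and -0.14, a mean of 0.06 (95% interval -0.12 to 0.25) and an adjusted p of 0.755 by limma. H3f3b gave 82.9% and 84.5% of the summed H3.3 level in the si-ctrl libraries and 86.2% and 83.4% in the si-Atad2 libraries. The difference of means was 1.06 percentage points (two-sided exact permutation p = 0.667, where 2 against 2 libraries cannot go below 0.333). H3f3a shared 92.8% of its coding windows with other genes and H3f3b 46.4%, and the part of such reads in this share was not tested.

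Neither H2A.Z gene passed the test. H2afv, on chr11:6427229-6444443, had 71.9 and 64.4 FPKM in si-ctrl 1 and 2 and 67.0 and 67.5 FPKM in si-Atad2 1 and 2. Both si-Atad2 values fell between the si-ctrl values (mean ratio -0.02, 95% interval -0.16 to 0.13, adjusted p = 0.929 by limma). H2afz, on chr3:137864487-137866922, had 26.4 and 25.9 FPKM in si-ctrl 1 and 2 and 24.8 and 23.6 FPKM in si-Atad2 1 and 2. The si-Atad2 values lay below the si-ctrl values in each pair, by -0.09 and -0.13 (mean -0.11, 95% interval -0.25 to 0.04, adjusted p = 0.455 by limma). H2afv gave 73.2% and 71.3% of the H2A.Z level in the si-ctrl libraries and 73.0% and 74.1% in the si-Atad2 libraries. The difference of means was 1.32 percentage points (two-sided exact permutation p = 0.667). H2afz shared 100% of its coding windows with other genes and H2afv 0, and the part of such reads in this share was not tested.

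Beneath the H2afz total, the values of the H2afz rows of the table lay in opposite directions. These rows have the same locus and their total had a ratio of only -0.11. Higher values in the longer row and lower values in the shorter row are therefore not independent observations. The row of 957 bases had 3.92 FPKM in si-ctrl 1, 4.33 FPKM in si-ctrl 2, 6.81 FPKM in si-Atad2 1 and 8.08 FPKM in si-Atad2 2. The row of 888 bases had 22.5, 21.6, 18.0 and 15.5 FPKM in the same order. Neither row overlapped between conditions, as was the case for 44.6% of the 17545 tested rows. Within each pair the authors' 95% intervals, which cover the estimate within a library and not the spread between libraries, did not overlap either, for example 2.53 to 5.31 against 5.53 to 8.09 FPKM for the 957-base row in pair 1. Such separation in the same direction in both pairs was found for 8.66% of tested rows. The mean log2 ratio was 0.72 (SE 0.092) for the 957-base row and -0.38 (SE 0.073) for the 888-base row. In the fit over single rows no row out of 17545 was called (limma, 0 at an adjusted p under 0.05 and 1745, or 9.95%, at an unadjusted p under 0.05), with adjusted p of 0.318 and 0.356 for these rows. The 957-base row made up 14.9% and 16.7% of the H2afz level in the si-ctrl libraries and 27.5% and 34.3% in the si-Atad2 libraries. That difference of 15.1 percentage points was 12.6 in pair 1 and 17.6 in pair 2 (two-sided exact permutation p = 0.333, the smallest that this design allows). The rows were assigned to H2afz by their locus and not by a transcript of their length, this pattern was picked after the values were seen, and the part of reads from the copies of H2afz described above was not tested.

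**Figure D5:**
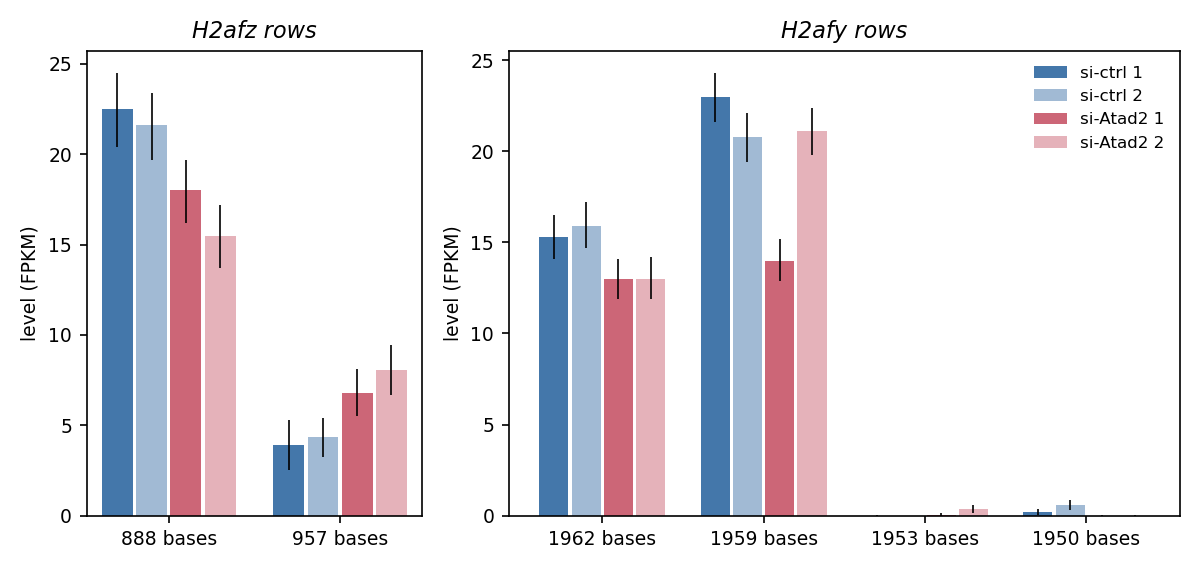
Level in FPKM (vertical axis) of single table rows, named by transcript length in bases (horizontal axis), for H2afz on the left and H2afy on the right, with 1 bar per library and the authors' 95% interval as the line. In H2afz the 957-base row is higher and the 888-base row lower in both si-Atad2 libraries, and in H2afy the 1959-base row is lower in si-Atad2 1 only.

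H2afx encodes H2A.X, whose tail is phosphorylated around DNA double-strand breaks. It has 1 exon, on chr9:44334694-44336077. Its level was 199.7 and 171 FPKM in si-ctrl 1 and 2 and 206 and 185 FPKM in si-Atad2 1 and 2. The conditions overlapped, and replicate 2 was the lower library in each condition (mean ratio 0.08, SE 0.056, 95% interval -0.04 to 0.21, adjusted p = 0.525 by limma). H2afx was the only member whose annotated transcript held the histone stem-loop, a stem of 6 and a loop of 4 bases, 46 bases after the end of the coding sequence. It is shown because it sets H2afx apart from the other members as a gene that can also make an mRNA of the replication-dependent kind, with stem and loop in capitals.
H2afx: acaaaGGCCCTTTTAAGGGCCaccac

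The same search found the stem-loop in 44 of 67 clustered histone genes (65.7%) and in 54 of 21901 protein coding genes (0.247%). The FPKM do not separate H2afx mRNA ending at the stem-loop from polyadenylated H2afx mRNA.

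H2afy encodes macroH2A1, an H2A with a macro domain at its carboxyl end. It lies on chr13:56073619-56136361, minus strand. Its level was 41.8 FPKM in si-ctrl 1, 40.0 FPKM in si-ctrl 2, 29.7 FPKM in si-Atad2 1 and 37.1 FPKM in si-Atad2 2. Both si-Atad2 values lay below both si-ctrl values, si-Atad2 1 more so. The ratios were -0.48 and -0.11, with a mean of -0.29 (SE 0.084, 95% interval -0.48 to -0.10, fold 0.817). The unadjusted p was 0.00562 and the adjusted p 0.120 by limma, and 1595 tested genes (16.2%) had an unadjusted p under 0.05, as had 3 of the 8 members, H1f0, H1fx and H2afy. By row, the 1959-base row had 23.0 and 20.8 FPKM in si-ctrl 1 and 2 and 14.0 and 21.1 FPKM in si-Atad2 1 and 2. The 1962-base row had 15.3 and 15.9 FPKM against 13.0 and 13.0 FPKM (adjusted p = 0.455 for this row and 0.604 for the 1959-base row, limma). Thus the lower total of si-Atad2 1 came mostly from the 1959-base row, and that of si-Atad2 2 from the 1962-base row.

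MacroH2A1 is known in splice forms that use 1 or the other of a pair of mutually exclusive exons, of which macroH2A1.1 binds ADP-ribose metabolites and macroH2A1.2 does not. In GENCODE vM21, H2afy transcripts of 372 codons held an exon of 100 bases and those of 369 codons an exon of 91 bases. These exons are shown because they are the only coding difference between the forms (chr13, minus strand, GRCm38).
H2afy exon of 100 bases, chr13:56089758-56089857: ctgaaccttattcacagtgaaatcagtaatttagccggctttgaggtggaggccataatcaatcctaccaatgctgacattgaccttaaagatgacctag
H2afy exon of 91 bases, chr13:56088252-56088342: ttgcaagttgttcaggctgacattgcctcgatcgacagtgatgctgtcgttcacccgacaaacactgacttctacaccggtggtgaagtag

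The exons differ by 9 bases, as do the table rows of 1962 and 1953 bases and those of 1959 and 1950 bases. The tables give no exons, so that match is by length alone. The shorter row of each of these couples was near 0: the 1953-base row had at most 0.389 FPKM and the 1950-base row at most 0.598 FPKM in any library. Together they made up 0.529% and 1.60% of these 4 rows in the si-ctrl libraries and 0.205% and 1.13% in the si-Atad2 libraries (two-sided exact permutation p = 0.667).

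H2afy2 encodes macroH2A2. The tables list its position only within a locus, chr10:61715263-61783864, that also holds Aifm2, and 3 rows there could not be given to either gene. Their lengths were 3151, 1910 and 1490 bases. The 1910-base row had 7.41 and 7.14 FPKM in si-ctrl 1 and 2 and 7.63 and 7.62 FPKM in si-Atad2 1 and 2. The 3151-base row lay between 3.17 and 3.25 FPKM, and the 1490-base row between 0.539 and 0.946 FPKM, in the 4 libraries. All 3 rows together were therefore below the H2afy level in every library, whichever gene they belong to.

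Of 28 tested genes in 5 lists of other histone variant biology, 1 was called, beside 1.96% of all tested genes. Of 6 clustered linker histone genes, 3 were tested and 1 was called, Hist1h1c, which encodes H1.2 and rose from 4.52 and 4.59 FPKM in the si-ctrl libraries to 6.74 and 5.82 FPKM in the si-Atad2 libraries (mean log2 ratio 0.39, adjusted p = 0.0416 by limma). Without the pairing of libraries this call did not hold. The mRNAs of clustered genes end in a stem-loop, and how fully these libraries held such mRNAs was not tested. Hist1h1b had the lowest ratio of the 3 (-0.09). Of 8 other variant histone genes, Cenpa (-0.08), the centromeric H3, and H2afj (0.09), an H2A variant, were tested and neither was called.

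None of the 7 tested of 9 H3.3 chaperone genes was called. Their median log2 ratio was -0.07, from -0.26 for Hira (adjusted p = 0.127, limma), the scaffold of the HIRA complex, to 0.15 for Ubn2, one of its subunits. None of the 10 tested of 15 genes of H2A.Z deposition and removal was called either. Their median was -0.01, from -0.16 for Anp32e (80.7 and 83.0 FPKM in the si-ctrl libraries, 76.1 and 70.3 FPKM in the si-Atad2 libraries, adjusted p = 0.243 by limma), the chaperone that removes H2A.Z, to 0.26 for Trrap (17.1 and 16.7 against 20.3 and 20.5 FPKM, adjusted p = 0.0858 by limma), a scaffold of the TIP60-EP400 complex. Of 9 kinases, phosphatase and readers of H2A.X, 6 were tested and none was called (median -0.01), from Atm (-0.07), a kinase of H2A.X, to Eya3 (0.18, adjusted p = 0.235 by limma), a phosphatase of its tyrosine.

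Within the linker pair, H1f0 gave 49.3% and 52.5% of the summed level of H1f0 and H1fx in the si-ctrl libraries and 54.7% and 51.3% in the si-Atad2 libraries (difference of means 2.11 percentage points, two-sided exact permutation p = 0.667). The difference was 5.43 points in pair 1 and -1.21 points in pair 2.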

How the data were processed

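RNA-seq of 4 libraries, 2 si-ctrl and 2 si-Atad2, grouped by the sample labels, was analysed. Total RNA was made into TruSeq RNA libraries and sequenced with paired ends of 50 cycles. Per the labels the authors used TopHat and Cuffdiff (versions not given in the sources used here). The paper's supplement names Bowtie for mapping the reads in its analysis of repeated sequences. The labels name the build mm9, but the loci of the deposited tables match GRCm38 gene positions, so GRCm38 was used. The authors deposited FPKM with 95% intervals for 59120 transcript rows, from 1 Cuffdiff run per pair of libraries; their fold changes and p-values were not used. Depth is not given.

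Rows of at least 200 bases were assigned to genes of GENCODE vM21, by a transcript of the row's length within 3 bases in its locus (14818 rows) or by the only coding gene of the locus (28344 rows), and summed per gene; 15958 rows stayed unnamed. Of all rows, 720 did not have status OK in all 4 libraries and were left out. Genes with a mean of at least 1 FPKM were tested with limma on the within-pair log2 ratios of FPKM + 1 (lmFit, eBayes with a trend on mean level, Benjamini-Hochberg adjustment over all genes, threshold 0.05). The replicate number was a block because each pair was scaled in its own run. As a check, libraries with the same number were compared in how they departed from the mean of their condition (Pearson correlation -0.040 across genes). They thus shared almost no departure across genes, which limits the case for the block, and the calls of H1fx and Hist1h1c did not hold without it. Shares were compared by exact permutation. The test was checked on simulated data.

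The members and lists were chosen with earlier results of these data known. Named genes were the members, Atad2, the markers, the called genes and the highest and lowest ratio of each list, and the 3 tested genes nearest in pair ratios to the member with the largest ratio, at a si-ctrl level within 2-fold. The alternatives were pseudocounts of 0.1 and 5 FPKM, no filter or a minimum of 5 FPKM, TPM, median of ratios, no replicate block, eBayes without a trend, other row sets, removal of a GC trend (loess, span 0.5) and leaving out libraries. Promoters came from RefSeq (GRCm38.p6). Tests used limma 3.58.1 in R 4.3.3. Tables were handled with pandas 2.3.3 and numpy 2.4.6 under Python 3.11.15, in which the permutation tests were also written, with matplotlib 3.10.9 for the plots.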

Additional observations from a re-analysis of the deposited data

How the results depend on the processing

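The number of members past the threshold, 1 in the analysis as reported, was 2 with a pseudocount of 0.1 or 5 FPKM, with TPM and with median of ratios, when H1f0 joined H1fx. It was 0 with no filter on low values, without the replicate block, with eBayes without a trend, with rows of all lengths, with rows named by length only (3 members tested), with single rows and with the replicate block and the GC trend removed. Leaving out 1 library at a time, without the block, gave 0 to 4 members and 10 to 1874 changed genes; the lone library is then assumed to vary like the other condition. The lowest counts of changed genes came without si-ctrl 2 (10) or si-ctrl 1 (21), and the highest without si-Atad2 2 (1874) or si-Atad2 1 (720). Over all genes the 193 changed genes became 0 with no filter, 121 with eBayes without a trend, 12 with rows of all lengths, 32 with rows named by length only and 0 with single rows (by limma, 1881 with no filter and 1745 with single rows had an unadjusted p under 0.05), against 138 without the replicate block. The calls of H1fx and Hist1h1c, the only ones among the members and lists, were both lost without the replicate block. H1fx was also lost in several of the settings above that kept the block. The fall of Atad2 missed the threshold with no filter (-1.53, adjusted p = 0.508 by limma) and with single rows (-1.58, adjusted p = 0.274 by limma), and kept its direction in all 18 alternatives. The adjusted p of H1fx by limma reached 0.552, with 6 of 15 alternatives past the threshold, and that of H1f0 reached 0.668, also with 6 of 15. These counts include fits with 1 si-Atad2 library left out. H2afy (-0.45) and H3f3b (0.22) passed only without si-Atad2 2, a fit that leaves 1 si-Atad2 library and takes the spread from the si-ctrl libraries. Ratios that changed sign were those of H2afx without si-ctrl 2 (-0.03), of H2afv with TPM (0.02), without si-ctrl 1 (0.06) and in pair 2 alone (0.07, against -0.10 in pair 1), and of H3f3b without si-Atad2 1 (-0.09) and in pair 2 alone (-0.14, against 0.27 in pair 1). The shares of H3f3b and H1f0 changed sign in pair 2 alone (-1.16 and -1.21 percentage points), and that of H2afv in pair 1 alone (-0.161). Over leaving out either pair they ranged from -1.16 to 3.28, from -1.21 to 5.43 and from -0.161 to 2.81 percentage points. The causes were not tested. Single rows without the block and the H2afz share without either pair were added after seeing the data. The spread was estimated from 2 ratios per gene, and depth is unknown.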
